A study of Mus musculus with 10 samples.

Results

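This comparison set all mouse embryonic stem cells (mESCs) that had received dCas9-VP160 against the control mESCs, irrespective of which promoter the guide RNAs (gRNAs) recognised. All 10 arrays of the series were members by their titles, namely 4 titled as *Hottip* activation and 3 titled as *Hoxa13* activation, which together formed the VP160 group, and 3 titled as control. The mean of each gRNA pool received equal weight, so that the difference reported is the average of the *Hottip* gRNA difference and the *Hoxa13* gRNA difference. The rule described a change only if it had the same direction in both pools, if every VP160 array lay beyond every control array, and if the pooled difference passed limma's moderated test at an adjusted p under 0.05.

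The study recruited the activator to silent posterior *Hoxa* promoters and measured total RNA on 1-colour (Cy3) Agilent arrays. All groups were E14 mESCs (129/Ola background), grown on gelatin with 10% fetal calf serum and 1000 U/ml of Lif. Each culture was transfected with gRNA plasmids that also carried mCherry and puromycin resistance, was selected with 2 µg/ml puromycin for 24 h, and was collected 48 h after transfection. VP160 cells received dCas9-VP160 with a pool of 5 gRNAs to the *Hottip* promoter (n = 4) or a pool of 5 gRNAs to the *Hoxa13* promoter (n = 3). Control cells (n = 3) received gRNAs without a target and dCas9 that lacked VP160. The presence of the activator and the presence of a targeting gRNA therefore changed together and cannot be told apart. The same 3 controls served both pools, so a control array that lies high or low moves both pool differences the same way, and agreement in direction between pools is not independent evidence. The descriptions call the samples biological replicates.

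dCas9 is a Cas9 protein that binds DNA where its gRNA directs it but no longer cuts, and VP160 is a chain of copies of the activation peptide of the herpes simplex virus protein VP16. *Hottip* is a long non-coding RNA gene beside *Hoxa13*, at the posterior end of the *Hoxa* cluster, and its RNA is known to bind Wdr5 and to help keep MLL methyltransferases at posterior *Hoxa* genes. In mESCs the *Hox* clusters are held silent by Polycomb complexes, and the cells can be driven towards trophoblast by forced expression of factors such as Cdx2.

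The gRNAs differed between the pools, as did the slide of some arrays, and the gRNA seeds were searched for in the promoters of the genes described here. The 5 *Hottip* gRNAs and 2 of the *Hoxa13* gRNAs are shown as examples. Each runs 5′ to 3′ as its protospacer and PAM, with the 12 bases next to the PAM and the PAM itself in capitals. They were found without a mismatch in the RefSeq promoter windows of *Hottip* or *Hoxa13* (GRCm38.p6), the *Hottip* pool within chr6:52262547-52262665.
Hottip gRNA 1: gcagtaagAAGGTAAACTCGGGG
Hottip gRNA 2: tctcctgaCTTTAGCGGTCCTGG
Hottip gRNA 3: tacccaggACCGCTAAAGTCAGG
Hottip gRNA 4: ggatcaggGAAGGTTTTATTGGG
Hottip gRNA 5: gggatcagGGAAGGTTTTATTGG
Hoxa13 gRNA 4: cgggccggGGGCGGGCCAATGGG
Hoxa13 gRNA 5: cgggccaaTGGGCGGCCGCCTGG

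The genes at the targeted locus did not fall under the rule. The level given throughout is the log2 processed signal of a probe minus the 75th percentile of its array. *Hoxa13* stood at -5.84, -5.00 and -3.46 on the control arrays, at 3.60, 4.16, 3.88 and 3.17 on the *Hottip* gRNA arrays, and at -3.68, -4.80 and -4.31 on the arrays labelled *Hoxa13* activation. The arrays labelled *Hoxa13* activation thus lay within the control range at this probe of the gene their gRNAs targeted (difference 0.50, adjusted p = 0.725, limma), and they are called the *Hoxa13*-labelled arrays below. The pooled difference of *Hoxa13* was 4.48 (SE 0.50, adjusted p = 0.00365, limma), but it came from the *Hottip* gRNA arrays. There the difference was 8.47, at least 144-fold when the controls are set at their detection limit, since no control and no *Hoxa13*-labelled array was above background. At a second *Hoxa13* probe, also below background in both groups, *Hoxa13*-labelled replicate 1 read -4.21 and the highest control -4.48. An exact permutation test of the 7 VP160 arrays against the 3 controls gave a two-sided p of 0.1 at the first probe and 0.117 at the second. The smallest possible value is 0.0167. *Hoxa11os*, an antisense transcript of *Hoxa11*, was likewise called with a pooled difference of 2.31 made of 4.20 in the *Hottip* gRNA arrays (at least 8.98-fold) and 0.43 in the *Hoxa13*-labelled arrays, which like the controls were below background. *Hoxa10* reached a pooled 1.79 (adjusted p = 0.0528, limma). By limma it differed by 3.41 in the *Hottip* gRNA arrays (adjusted p = 0.00169). In the *Hoxa13*-labelled arrays, which like the controls were below background, it differed by 0.16 (adjusted p = 0.88, limma). *Hoxa11* and *Evx1* were too dim to be tested. No probe is named for *Hottip* itself.

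Before turning to genes, the arrays themselves need description. Between 32.9% and 42.5% of the spots on an array stood well above background, and between 0.312% and 7.28% carried the scanner software's outlier mark and were set aside. The *Hoxa13*-labelled replicates 1 and 2 came from slide 1, and the other 8 arrays from slide 2. The 6 mESC markers (*Pou5f1*, *Sox2*, *Nanog*, *Zfp42*, *Esrrb* and *Dppa5a*) were well above background on all 10 arrays, at summed levels of 6.56 to 8.27 in controls, 6.72 to 7.86 in *Hottip* gRNA arrays and 7.97 to 8.55 in *Hoxa13*-labelled arrays. The *Hoxa13*-labelled arrays therefore sat at the upper end, overlapping the controls.

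Few probes differed between VP160 and control cells. Of 22823 probes tested, 92 (0.403%) were called, 35 of them higher (0.153%) and 57 lower (0.25%). The full rule left 21 probes higher (0.092%) and 57 lower (0.25%), of 18 and 33 named genes, with 3 and 23 probes that have no gene symbol. Whether called or not, the 7 VP160 arrays lay wholly above the 3 controls for 490 probes (2.15%) and wholly below for 576 (2.52%), so lack of overlap was far more common than a call. For *Hottip* gRNA arrays alone 164 probes (0.719%) were called against control, and for *Hoxa13*-labelled arrays 40 (0.175%). The count depended heavily on the model. Weighting the arrays gave 1881 called and 508 described (241 higher, 267 lower), the replicate number as a block gave 2 called (both lower), and of the 14112 probes well above background on all 10 arrays limma called 0, with 788 at an unadjusted p under 0.05. The counts also moved with single arrays, and of these fits the lowest and highest both left out a control. With control 2 left out 12 probes were described (2 higher, 10 lower), all among the original ones. With control 1 left out there were 29 (3 and 26), of which 3 and 17 were original, and with control 3 left out 180 (39 and 141), of which 18 and 55 were original. Leaving out a VP160 array gave 113 (24 and 89) without *Hottip* replicate 1, 50 (9 and 41) without replicate 2, 60 (24 and 36) without replicate 3 and 47 (13 and 34) without replicate 4. The *Hoxa13*-labelled replicates gave 34 (6 and 28), 49 (10 and 39) and 53 (20 and 33) when replicate 1, 2 or 3 was left out. With the slide as a block 65 probes were described (21 and 44), but only 7 of the original 21 rises and 34 of the 57 falls were among them. On slide 2 alone, which held arrays of all 3 groups, 16 probes were described (1 and 15). In the authors' log2 values 2 of the 21 rises and 30 of the 57 falls were still called without overlap. The balance also moved with the scaling, since 73.1% of the described probes were lower, against 60.6% after quantile normalisation, and 62.0% of those called, against 49.6% after quantile normalisation and 48.9% after normexp background correction. With the local median of the array surface subtracted the balance turned, to 158 higher and 42 lower (21.0% lower, and 19.3% of those called).

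Among the genes described as higher, *Tnnt3*, which encodes the troponin T of fast skeletal muscle, held its call with each of the 10 arrays left out in turn. It stood at -4.53, -4.77 and -4.68 in the controls, at -0.88, -0.60, -0.75 and -1.11 in *Hottip* gRNA arrays, and at -1.89, -1.80 and -2.45 in *Hoxa13*-labelled arrays. The 3 controls were tightly grouped and below background, and all 7 VP160 arrays were above background. The pooled difference was 3.22 (SE 0.29, adjusted p = 0.00177, limma), or at least 4.08-fold when the controls are set at their detection limit. It was called in each pool, at 3.83 in *Hottip* gRNA arrays and 2.61 in *Hoxa13*-labelled arrays. The call was lost in 5 of 30 alternatives, namely the authors' log2 values (2.08, adjusted p = 0.086), normexp (1.83, adjusted p = 0.0632), normexp with quantile normalisation (1.77, adjusted p = 0.0985), the replicate number as a block (3.27, adjusted p = 0.0745), and a filter for detection on all arrays, which left it untested. A second *Tnnt3* probe, below background in controls and not tested, differed by 2.25 in the *Hottip* gRNA arrays and by -0.25 in the *Hoxa13*-labelled arrays. *Tnnt3* lies on chromosome 7 with 1 annotated gene between it and *Lsp1* and 5 between it and *Igf2*, which were called only through the *Hottip* gRNA arrays (pooled differences 2.19 and 3.58).

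*Ly6a* and *Ly6c1*, neighbours on chromosome 15 with no annotated gene between them, encode GPI-anchored proteins, and Ly6a is the stem cell antigen Sca-1. *Ly6a* stood at 0.00, -0.65 and -0.33 in controls, at 3.09, 3.30, 3.37 and 3.13 in *Hottip* gRNA arrays, and at 0.40, 1.21 and 0.99 in *Hoxa13*-labelled arrays. *Ly6c1* stood at -0.19, -0.95 and -0.39, at 3.25, 3.52, 3.69 and 2.81, and at 0.96 and 0.64, with *Hoxa13*-labelled replicate 3 set aside. For both genes the *Hottip* gRNA arrays were highest, the *Hoxa13*-labelled arrays lay between, and no group overlapped another. The pooled differences were 2.37 for *Ly6a* (SE 0.31, adjusted p = 0.00949) and 2.57 for *Ly6c1* (SE 0.35, adjusted p = 0.0164) by limma. Neither gene was called in the *Hoxa13*-labelled arrays alone (1.19 and 1.31). *Ly6a* lost its call in 9 of 30 alternatives (1.98 to 2.54, adjusted p 0.062 to 0.356), among them the authors' log2 values, normexp, the replicate block, slide 2 alone, 1 mean for the 7 VP160 arrays, and the fit without control 2 (2.21, adjusted p = 0.112). *Ly6c1* lost it in 10 of 29 alternatives (adjusted p up to 0.210). Among them were the fits without control 1 (2.73, adjusted p = 0.0513), control 2 (2.35, adjusted p = 0.141), or *Hoxa13*-labelled replicate 1 (2.49, adjusted p = 0.0679) or 2 (2.65, adjusted p = 0.0515).

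*Dpp4*, a membrane peptidase, measured -2.30, -2.03 and -1.40 in controls, 0.59, 1.27, 0.36 and 1.04 in *Hottip* gRNA arrays, and -0.52, -0.24 and -0.17 in *Hoxa13*-labelled arrays. Its pooled difference was 2.16 (SE 0.34, adjusted p = 0.0215, limma), and the call held in 3 of the 10 fits that left out an array, those without control 3 or *Hottip* gRNA replicate 1 or 3 (adjusted p up to 0.178 in the others). *Cd82*, a tetraspanin, showed the reverse order of the pools, at -4.14, -4.48 and -3.81 in controls, -3.01, -2.45, -2.53 and -2.88 in *Hottip* gRNA arrays, and -0.61, -1.43 and -1.15 in *Hoxa13*-labelled arrays. It was below background in controls and in *Hottip* gRNA arrays, and its pooled difference was 2.25 (SE 0.32, adjusted p = 0.016, limma), in part resting on dim *Hottip* gRNA spots. The call was lost without control 1 (2.25, adjusted p = 0.061) or control 2 (2.08, adjusted p = 0.143). Another *Cd82* probe rose by 1.56 without overlap and just missed the threshold (adjusted p = 0.052).

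**Figure D1:**
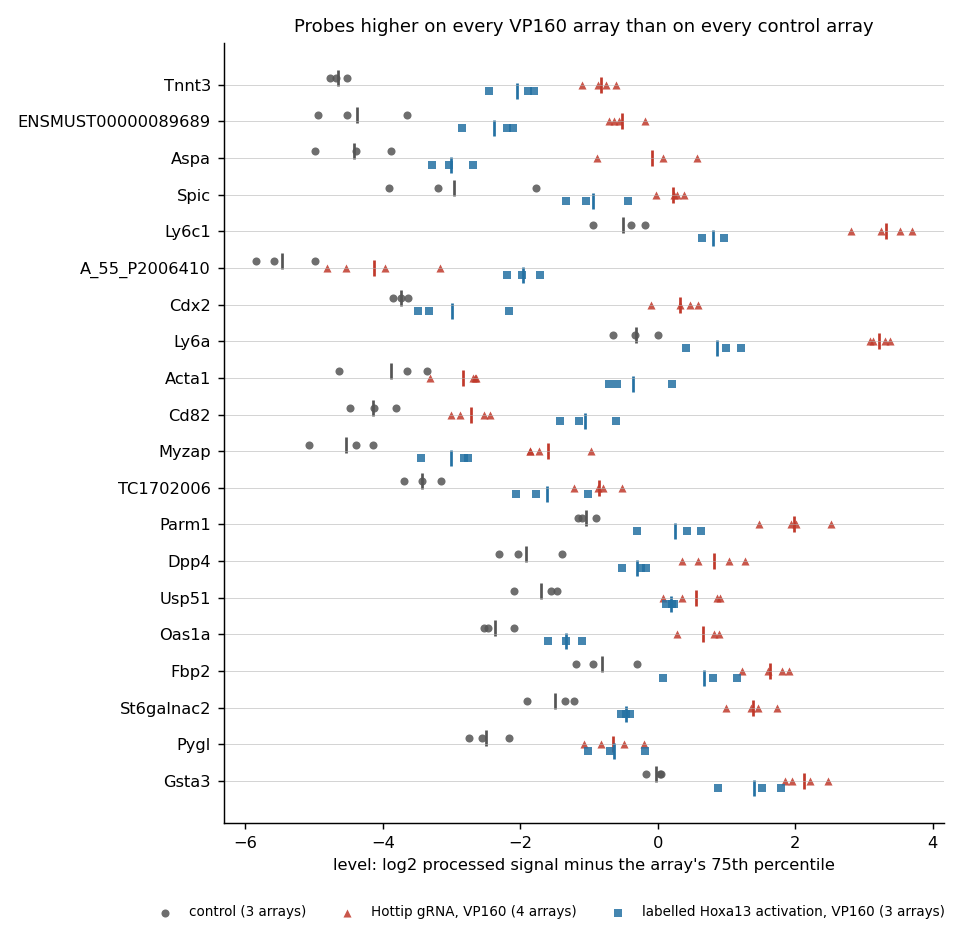
Level of 20 of the 21 probes described as higher, 1 line per probe, on the x axis as log2 processed signal minus the 75th percentile of the array. Points are single arrays coloured by group (4 *Hottip* gRNA, 3 *Hoxa13*-labelled, 3 control), and bars are group means. On each line the VP160 points lie to the right of the control points, and for *Ly6a*, *Ly6c1* and *Cdx2* the *Hottip* gRNA points lie furthest right.

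Transcription factors that rose were *Cdx2*, a caudal homeobox factor of trophectoderm and of the posterior embryo, and *Spic*, an Ets family factor. *Cdx2* stood at -3.85, -3.74 and -3.63 in controls, at -0.10, 0.32, 0.59 and 0.46 in *Hottip* gRNA arrays, and at -2.17, -3.33 and -3.48 in *Hoxa13*-labelled arrays. The lowest *Hoxa13*-labelled array cleared the highest control by only 0.15, and no control and 1 of 3 *Hoxa13*-labelled arrays were above background. The pooled difference of 2.40 (SE 0.36, adjusted p = 0.0178, limma) joined 4.06 in the *Hottip* gRNA arrays (at least 13.3-fold) with 0.75 in the *Hoxa13*-labelled arrays, which was not called (adjusted p = 0.493). No pooled fold is given, since most *Hoxa13*-labelled spots were not above background. Its call was lost in 9 of 30 alternatives (adjusted p up to 0.631, with 1 mean for the 7 VP160 arrays), among them the slide as a block (2.16, adjusted p = 0.0624), the replicate block (2.38, adjusted p = 0.17), the authors' log2 values (2.17, adjusted p = 0.054), and the fits without control 1 (2.35, adjusted p = 0.0824) or control 2 (2.40, adjusted p = 0.141). *Spic* measured -3.19, -1.78 and -3.91 in controls, 0.38, 0.23, -0.02 and 0.28 in *Hottip* gRNA arrays, and -1.04, -0.43 and -1.34 in *Hoxa13*-labelled arrays, a pooled difference of 2.60 (SE 0.44, adjusted p = 0.0345) and at least 5.30-fold above the dim controls. Its controls spread more widely than either VP160 pool, and its call was lost in 8 of the 10 fits that left out an array, all but those without control 2 or *Hottip* gRNA replicate 1 (adjusted p up to 0.157, limma).

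*Acta1*, skeletal muscle actin, stood at -3.36, -4.65 and -3.64 in controls, -2.66, -2.64, -2.69 and -3.32 in *Hottip* gRNA arrays and 0.21, -0.70 and -0.60 in *Hoxa13*-labelled arrays. The gene was well above background on all 3 *Hoxa13*-labelled arrays, on 1 control and on no *Hottip* gRNA array, so the order of the last 2 groups, which cleared each other by 0.04, is one of spots mostly not above background. The pooled difference was 2.29 (SE 0.38, adjusted p = 0.0293, limma), with 3.52 in the *Hoxa13*-labelled arrays, and its call held in 3 of the 10 fits that left out an array, those without control 3 or *Hottip* gRNA replicate 1 or 4 (adjusted p up to 0.233). *Fbp2*, the muscle form of fructose bisphosphatase, differed by 1.97 (adjusted p = 0.0439), with -0.94, -1.19 and -0.31 in controls and 0.07 to 1.91 in VP160 arrays. *Pygl*, liver glycogen phosphorylase, differed by 1.85 (adjusted p = 0.0439) and by nearly the same amount in both pools (1.85 and 1.86). *Fbp2* and *Pygl* were the named rises closest to the threshold, and *Pygl* lost its call whichever array was left out (adjusted p 0.0606 to 0.334, limma), *Fbp2* in all but the fits without control 3 or *Hoxa13*-labelled replicate 3 (up to 0.343). *Myzap*, a component of cardiac cell junctions, differed by 2.23 (adjusted p = 0.0234, limma) and held its call in 5 of the 10 fits (adjusted p up to 0.206 without control 2). It was below background in controls and above it on 3 *Hottip* gRNA arrays and 1 *Hoxa13*-labelled array, so no fold is given.

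The remaining named rises were enzymes and single genes of other roles. *Usp51*, a deubiquitinase, stood at -1.55, -1.47 and -2.09 in controls, 0.36, 0.90, 0.08 and 0.86 in *Hottip* gRNA arrays and 0.12, 0.23 and 0.21 in *Hoxa13*-labelled arrays (pooled 2.07, SE 0.31, adjusted p = 0.0206, limma). *Aspa*, aspartoacylase, differed by 2.88 (4.34 and 1.42 in the pools), and was below background in controls and in *Hoxa13*-labelled arrays, so the 1.42 is a difference between spots not above background and no fold is given. *Oas1a*, an interferon-inducible oligoadenylate synthetase, differed by 2.02 (3.03 and 1.02), *Parm1* by 2.17 (3.04 and 1.30), and *St6galnac2*, a sialyltransferase, by 1.95 (2.88 and 1.02). *Gsta3*, a glutathione transferase, differed by 1.79 (2.15 and 1.42), the smallest of the rises. With an array left out in turn, the call of *Usp51* held in 4 of 10 fits, that of *Aspa* in 5, *Oas1a* in 3, *Parm1* in 4, *St6galnac2* in 4 and *Gsta3* in 2. For each of these 6 genes the adjusted p was highest without control 2, from 0.13 for *Usp51* to 0.238 for *Gsta3* (limma), and each also lost its call without control 1. Other probes of the risen genes numbered 8, of which 5 were tested, and all 8 pointed upwards in the pooled difference, 4 of them at an unadjusted p under 0.05 in limma. The 18 risen genes were spread over 13 chromosomes.

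The rises were not of one size in the pools. Of the 21 risen probes, 17 had the larger difference in *Hottip* gRNA arrays, where the median was 2.94, against 1.60 in *Hoxa13*-labelled arrays. Called on their own were 17 in the *Hottip* gRNA arrays and 4 in the *Hoxa13*-labelled arrays. The direct contrast of the pools, in which the shared control cancels, called 87 probes (0.381%), of which 6 were risen probes here. *Cdx2* was 3.31 higher in *Hottip* gRNA than in *Hoxa13*-labelled arrays (adjusted p = 0.00678), *Aspa* 2.92 (0.0423), *Ly6c1* 2.52 (0.0444), *Ly6a* 2.36 (0.0207) and *St6galnac2* 1.85 (0.0485), while *Acta1* differed by -2.46 (0.038), that is, higher in *Hoxa13*-labelled arrays, all by limma. *Aspa* was above background on no *Hoxa13*-labelled array, *Cdx2* on 1, and *Acta1* on no *Hottip* gRNA array, so the sizes of these differences are not exact. With an array left out in turn, the call held in 9 of 10 fits for *Cdx2*, lost without *Hoxa13*-labelled replicate 2 (adjusted p = 0.0618), but in 4 for *Ly6a*, 3 for *Acta1*, 2 for *Aspa* and 1 each for *Ly6c1* and *St6galnac2*, all of which kept it without control 3 and lost it without *Hoxa13*-labelled replicate 1, 2 or 3. Over all 29 alternatives the call was lost in 4 for *Cdx2* (adjusted p up to 0.106, limma), 12 for *Ly6a*, 14 for *Ly6c1* and 17 each for *Aspa*, *Acta1* and *St6galnac2*. All *Hottip* gRNA arrays were on slide 2, and *Hoxa13*-labelled replicates 1 and 2 were on slide 1. Pool and slide were thus partly confounded. None of the 57 described falls was called in the contrast of the pools.

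**Figure D2:**
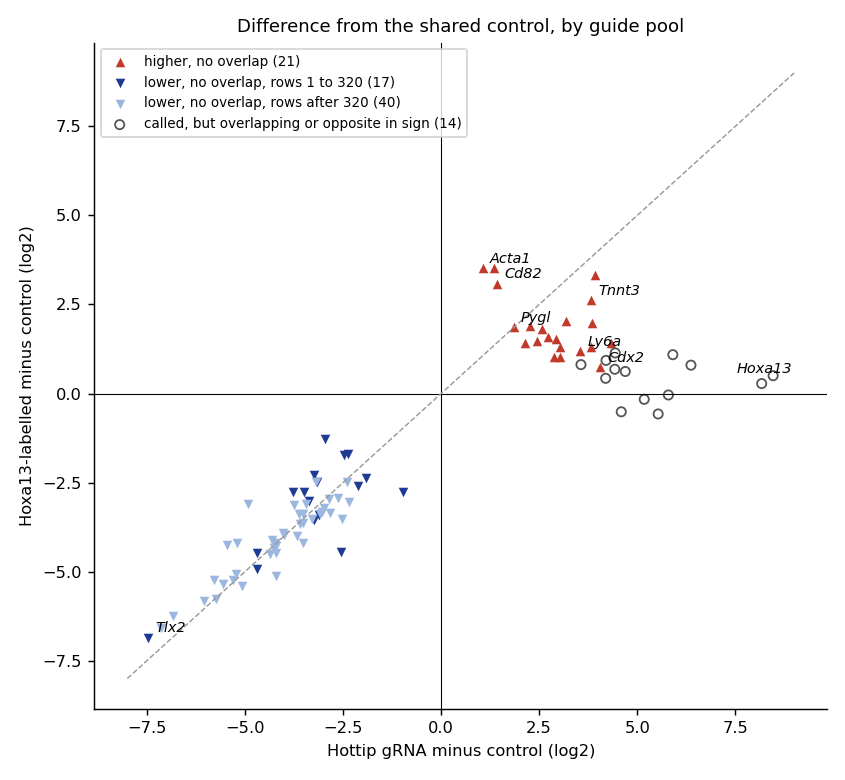
Difference from the shared control in *Hottip* gRNA arrays (x axis, log2) against that in *Hoxa13*-labelled arrays (y axis, log2), 1 point per probe. Described falls lie near the line of equal size, most described rises lie to the *Hottip* side of it, and the called probes that did not follow the rule, such as *Hoxa13* (8.47 and 0.50), lie near 0 on the y axis. Both axes subtract the same 3 controls, so the points are not independent between axes.

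A further 14 called probes did not follow the rule. All 14 were called in *Hottip* gRNA arrays and none in *Hoxa13*-labelled arrays. In 4 of them the pools went in opposite directions, and in 10 at least 1 *Hoxa13*-labelled array overlapped the controls. They comprised both *Hoxa13* probes, *Hoxa11os*, *Igf2* (a fetal growth factor) and *Igf2os*, both *Bhmt* probes, *Atoh1*, *Hesx1*, *Dppa1*, *Lsp1*, *Crispld2* and 2 probes of an unnamed region of chromosome 17. *Igf2*, for example, differed by 6.37 in *Hottip* gRNA arrays and by 0.80 in *Hoxa13*-labelled arrays (adjusted p = 0.545, limma).

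The falls were larger than the rises, and their place on the array had to be taken into account. Of 57 described falls, 40 were spots in the last rows of the array, after row 320, and 33 of those had another described fall within 5 spots. The other 17 lay in rows 1 to 320, none with such a neighbour. Thus 0.854% of tested probes in rows after 320 were described as lower, against 0.0937% in rows up to 320, whereas described rises made up 0.107% and 0.0882%. Dim spots in the lower rows were brighter than elsewhere by 1.66 on control 1 and 2.21 on control 2, but also by 1.19 on *Hottip* replicate 1 and 1.24 on *Hoxa13*-labelled replicate 2. They were dimmer on control 3, at -0.65, and on *Hoxa13*-labelled replicate 1, at -0.79. The values were 0.37 on *Hottip* replicate 2, 0 on *Hottip* replicates 3 and 4, and 0.02 on *Hoxa13*-labelled replicate 3. Among the 40 probes, 33 had their spot on *Hottip* replicate 1 set aside as an outlier and 21 their spot on control 3. With outlier spots kept, 8 of these 40 still separated the groups, against all 17 falls of rows up to 320 and all 21 rises. With the local median of the surface subtracted, the median difference of the 40 went from -3.98 to -1.67 and 8 were still called without overlap, while that of the 17 went from -3.14 to -2.96 and 16 were. Of the 21 rises, 12 were still called without overlap in that setting and 13 still separated the groups, at a median of 2.26.

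**Figure D3:**
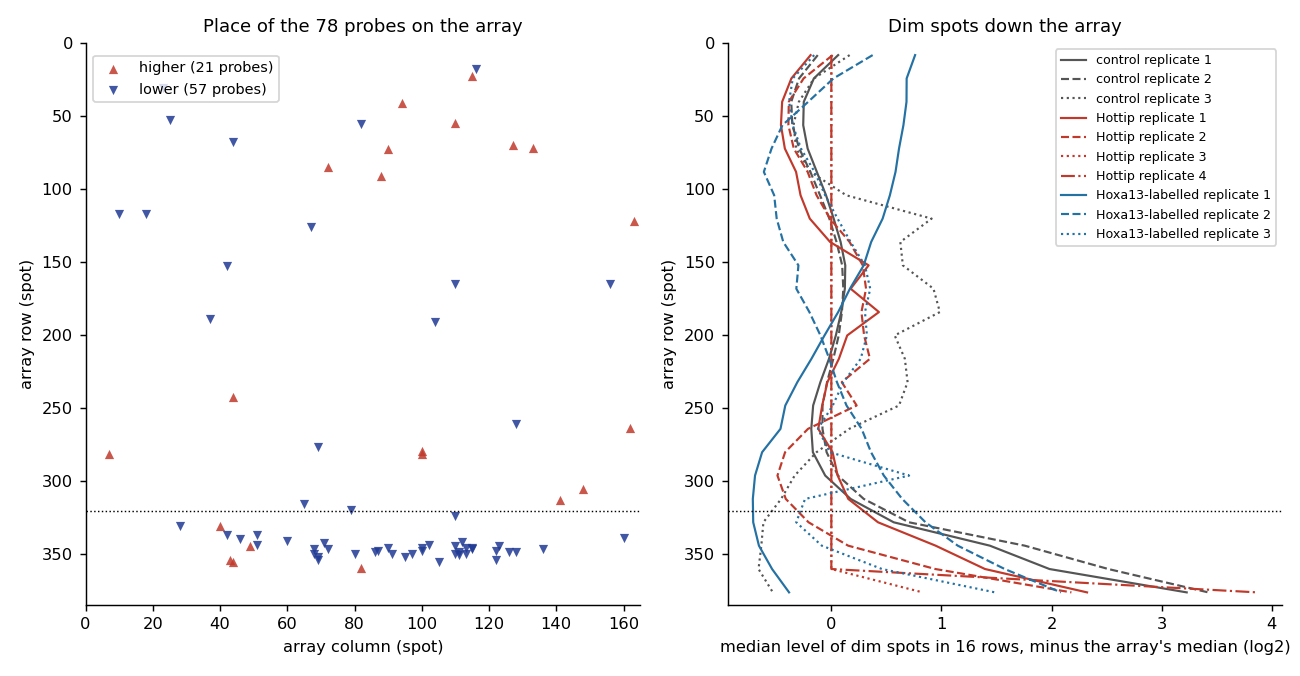
Left, position of the 78 described probes on the array by spot column and row, with rises and falls in separate colours. Right, median level of dim spots in blocks of 16 rows, relative to the median of the array (log2), 1 line per array. Falls crowd below the dotted line after row 320, where the dim spots of controls 1 and 2 and of several VP160 arrays are brighter, while 5 of the 21 rises lie there.

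Among the 17 falls of rows 1 to 320, homeobox gene *Tlx2* fell most. It stood at 3.28 and 3.25 in controls 1 and 2, at -3.65, -3.93, -4.54 and -4.74 in *Hottip* gRNA arrays, and at -3.01, -3.33 and -4.43 in *Hoxa13*-labelled arrays. The spot on control 3 had an outlier mark and read 3.80, and no VP160 array was above background. The pooled difference was -7.17 (SE 0.47, adjusted p = 0.000782, limma), at least 68.4-fold lower in VP160 cells. *Tlx2* was called in each pool and held its call with each array left out.

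*Nrn1*, the neuronal protein neuritin, stood at 1.74, 1.32 and 1.77 in controls, -2.48, -3.34, -3.03 and -3.48 in *Hottip* gRNA arrays, and -4.26, -2.34 and -2.03 in *Hoxa13*-labelled arrays. Its pooled difference was -4.59 (SE 0.48, adjusted p = 0.00229, limma). *Tlx2* and *Nrn1* were among the 12 largest named falls. The falls of rows 1 to 320 named from here on were chosen after their values were seen. *Cxcl14*, a chemokine, stood at 0.00, -0.26 and -0.17 in controls, -3.24, -2.61, -2.22 and -2.74 in *Hottip* gRNA arrays, and -4.35, -4.60 and -4.84 in *Hoxa13*-labelled arrays. It fell by 3.51 (SE 0.31, adjusted p = 0.00177) and at least 6.40-fold, by more in *Hoxa13*-labelled (-4.45) than in *Hottip* gRNA arrays (-2.56), though the difference between pools just missed the threshold (adjusted p = 0.0502). *Rapgefl1*, a protein related to exchange factors of small GTPases, stood at -0.67, -0.72 and -1.15 in controls, -4.18, -4.16, -4.17 and -3.84 in *Hottip* gRNA arrays, and -3.81, -4.62 and -4.77 in *Hoxa13*-labelled arrays, a difference of -3.39 (SE 0.32, adjusted p = 0.00177), at least 4.02-fold.

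*Tgfbi*, an extracellular matrix protein, stood at 3.74, 4.14 and 4.57 in controls and remained above background in all VP160 arrays. It measured 1.00, 1.18 and 0.52 in *Hottip* gRNA replicates 2, 3 and 4 and 1.51, 2.34 and 1.74 in *Hoxa13*-labelled arrays, a difference of -2.77 (SE 0.35, adjusted p = 0.0125, limma), or 6.81-fold. Leaving out control 2 removed its call (-2.77, adjusted p = 0.105). *Tnfaip6*, a hyaluronan-binding protein, differed by -3.26 (adjusted p = 0.00535, at least 3.40-fold), from controls of -1.11 to -1.06 to VP160 arrays that were all below background. *Aqp5*, a water channel, was represented by 2 probes, both described as lower, at -3.28 (adjusted p = 0.0029) and -2.83 (adjusted p = 0.0201). With an array left out in turn, the call of *Tnfaip6* held in 9 of 10 fits (adjusted p up to 0.0514, limma). *Tnfaip6*, too, met the requirement of detection through the controls alone. That of the first *Aqp5* probe held in 10 and that of the second in 8 (adjusted p up to 0.134). *Tgfbi* and *Cxcl14* lie on chromosome 13 with 13 genes between them.

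The other named falls of rows 1 to 320 were *Lrrn1* (-3.14), *Ecel1* (-2.36), *Sema4d* (-2.14), *Ankrd34a* (-2.12), *Scg3* (-2.11), *Ica1* (-2.03) and *Sync* (-1.86). With an array left out in turn their calls held in 8 of 10 fits for *Lrrn1*, 5 for *Ica1*, 4 for *Ecel1*, 3 for *Ankrd34a*, 2 for *Scg3* and 1 each for *Sema4d* and *Sync*. For all of them the adjusted p was highest without control 2, from 0.105 for *Lrrn1* to 0.256 for *Sema4d* (limma), and the call was lost without control 1 as well. *Scg3* and *Ica1* are genes of secretory granules, *Sema4d* encodes a semaphorin, and *Sync* an intermediate filament protein of muscle. *Sync* fell by more in *Hoxa13*-labelled arrays (-2.76) than in *Hottip* gRNA arrays (-0.97), and the difference between pools was not called (adjusted p = 0.0698, limma). A second *Ica1* probe differed by -1.98 without overlap, and a second *Ankrd34a* probe, above background on no array, by 0.21. Over all described falls 12 other probes were present, of which 3 were tested, and 8 pointed downwards. The 4 that pointed upwards, of *Adad1*, *Ankrd34a*, *Fmo1* and *Rfx5*, were not tested.

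**Figure D4:**
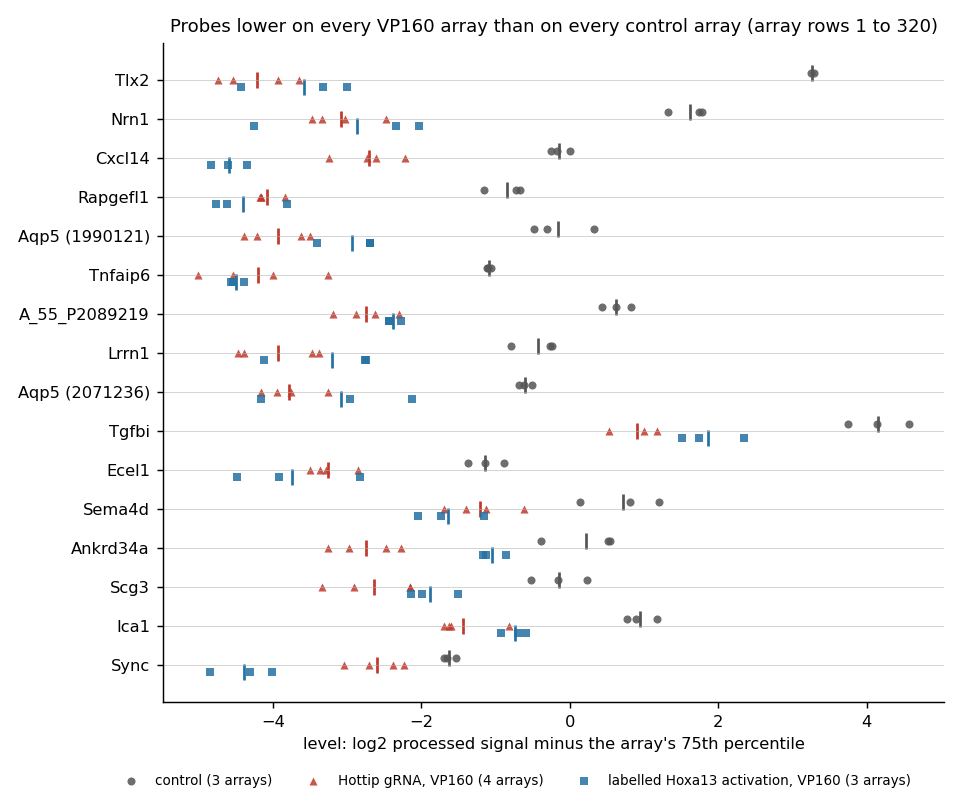
Level of 16 of the 17 falls of rows 1 to 320, 1 line per probe, on the x axis as log2 processed signal minus the 75th percentile of the array, with points for single arrays and bars for group means, coloured by group. For *Tlx2* and *Nrn1* the 7 VP160 points lie far to the left of the control points, and for *Sync* the *Hottip* gRNA points lie nearest the controls.

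In rows after 320 lay 9 of the 12 largest named falls. They were *Atp7b* (-6.87), *Wdr64* (-5.93), *Olfr617* (-5.26), *Nfkbiz* (-4.85), *Slco6d1* (-4.68), *Adad1* (-4.24), *Cdc42ep2* (-4.22), *Antxr2* (-4.01) and *Fmo1* (-3.86). With an array left out in turn, the call of *Olfr617* held in 9 of 10 fits, *Nfkbiz* in 8, *Cdc42ep2* in 7, *Adad1* in 6, *Antxr2* and *Fmo1* in 3 and *Slco6d1* in 2. *Atp7b* and *Wdr64*, which could not be fitted without control 1, held it in 5 and 3 of 9 fits. The difference of *Antxr2* ran from -5.24 to -2.78, the latter without control 1, and that of *Slco6d1* was -4.16 without control 1 (adjusted p = 0.369, limma). Over all alternatives the differences nearest 0 were -1.23 for *Cdc42ep2*, -1.63 for *Fmo1*, -1.64 for *Antxr2*, -1.69 for *Adad1* and -1.98 for *Slco6d1*. They were -2.19 for *Nfkbiz*, -2.21 for *Olfr617*, -3.15 for *Wdr64* and -3.67 for *Atp7b*. *Atp7b*, a copper-transporting ATPase, and *Wdr64* each rested on 1 control value after outlier spots were set aside. For *Atp7b* that value was 2.68, and with outlier spots kept *Hottip* replicate 1 read 2.94 against controls of 1.61 to 4.63, so the groups overlapped. Many of the lowest levels in these rows were at the floor of *Hottip* gRNA replicates 3 and 4 (-4.54 and -5.01), where levels have no order. For *Olfr617*, an olfactory receptor, the kept spot of *Hottip* replicate 1 read 0.53, within the controls of 0.47 to 0.90. *Gadl1*, also in these rows but without a described neighbour, stood at -0.77, -1.19 and -1.37 in controls and from -5.04 to -3.87 in VP160 arrays (difference -3.41, adjusted p = 0.00229, limma, at least 3.35-fold), and held its call with each array left out. *Gadl1*, too, met the requirement of detection through the controls alone.

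Gene lists for cell states and stress responses gave little beyond these genes. Over 27 lists with 299 entries, of which 295 had a probe and 246 were tested, 4 members were called (1.63%, against 0.403% of all tested probes), namely *Hoxa13*, *Hoxa11os*, *Cdx2* and *Igf2*, and 3 of those 4 were outside the rule. The lists were drawn up with earlier results known, so nothing is read from that share. Among naive pluripotency factors none of 14 tested was called, with a median difference of 0.49 (0.029 after quantile normalisation), against 0.08 for all tested probes. *Nanog* differed by 1.15 (adjusted p = 0.496, limma). None of 11 general pluripotency and Myc genes was called (median 0.12), nor any of 13 Polycomb and MLL complex genes (median 0.12), 12 cofactors known to be contacted by activation domains (median -0.06), 16 p53 targets (median 0.04), 13 genes of the integrated stress and unfolded protein responses (median 0.23), 7 heat shock genes (median 0.11), 15 of glycolysis (median 0.61, 0.025 after quantile normalisation and 0.28 without control 1) or 12 of cholesterol synthesis (median -0.02). Of these lists, naive pluripotency (2, higher) and glycolysis (1, higher) held members with an unadjusted p under 0.05, against 4.36% of all tested probes higher and 3.36% lower at that level. *Psip1*, *Wdr5* and *Men1* encode proteins of the MLL machinery, and none was called. *Psip1* differed by 0.12 at a probe with 1 control value and by 0.51 at another probe, *Wdr5* by -0.28, and the *Men1* probes went in opposite directions, at 0.66 and -0.59. *Gapdh* and *Actb* differed by 0.90 and 0.09 and were not called. The signs for *Psip1*, *Wdr5*, *Gapdh* and *Actb* turned under some scalings.

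The trophoblast list stood furthest from 0 among those with more than 4 tested members. Of 8 tested, 1 was called (*Cdx2*), 7 were higher at an unadjusted p under 0.05, and the median was 1.47. *Krt7*, a simple epithelial keratin, differed by 2.11 (adjusted p = 0.052), *Tfap2c* by 2.29 (0.343), *Krt8* by 1.58 (0.485), *Gata3* by 1.36 (0.194) and *Ascl2* by 1.24 (0.234), by limma. At some members the *Hottip* gRNA arrays gave nearly all of this. *Gata3* differed there by 2.72, against 0.00 in the *Hoxa13*-labelled arrays, and *Ascl2* by 2.38 against 0.10. *Krt7* differed by 3.14 against 1.09. For 4 of the 8 tested members every VP160 array lay beyond every control, as for 1066 of all 22823 tested probes. The summed level of 5 trophoblast markers was -1.69 to -1.15 in controls, 1.14 to 1.70 in *Hottip* gRNA arrays and -1.57 to -0.48 in *Hoxa13*-labelled arrays, so that only the *Hottip* gRNA arrays lay apart. *Elf5* and *Hand1* were above background on no array. In bulk RNA a larger number of cells of a type and more RNA per cell cannot be told apart.

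Markers of other cell types were less regular. Primitive endoderm markers summed to 1.60 to 6.32 in controls, 2.25 to 3.21 in *Hottip* gRNA arrays and 1.35 to 1.82 in *Hoxa13*-labelled arrays. Fibroblast markers summed to -0.23 to 1.39, -0.13 to 2.81 and 0.44 to 1.26, and neural markers to 1.61 to 3.81, 1.52 to 2.92 and 2.60 to 3.25, each overlapping between groups. The part of other cell types in the rises was not tested. Of 10 interferon and DNA-sensing genes none was called and 4 were higher at an unadjusted p under 0.05 (median 0.73), with *Rsad2* at 1.39 (adjusted p = 0.374) and *Isg15* at 1.24 (adjusted p = 0.286). The list took another *Oas1a* probe than the risen one, which differed by 1.34 (adjusted p = 0.537). Of 9 lysosome and autophagy genes, *Gabarapl1* differed by 2.20 and *Tfeb* by 1.85, neither called. Of 10 imprinted genes tested, *Igf2* was called and *H19* differed by 2.03 (adjusted p = 0.0538), with 3.42 in *Hottip* gRNA arrays and 0.64 in *Hoxa13*-labelled arrays.

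**Figure D5:**
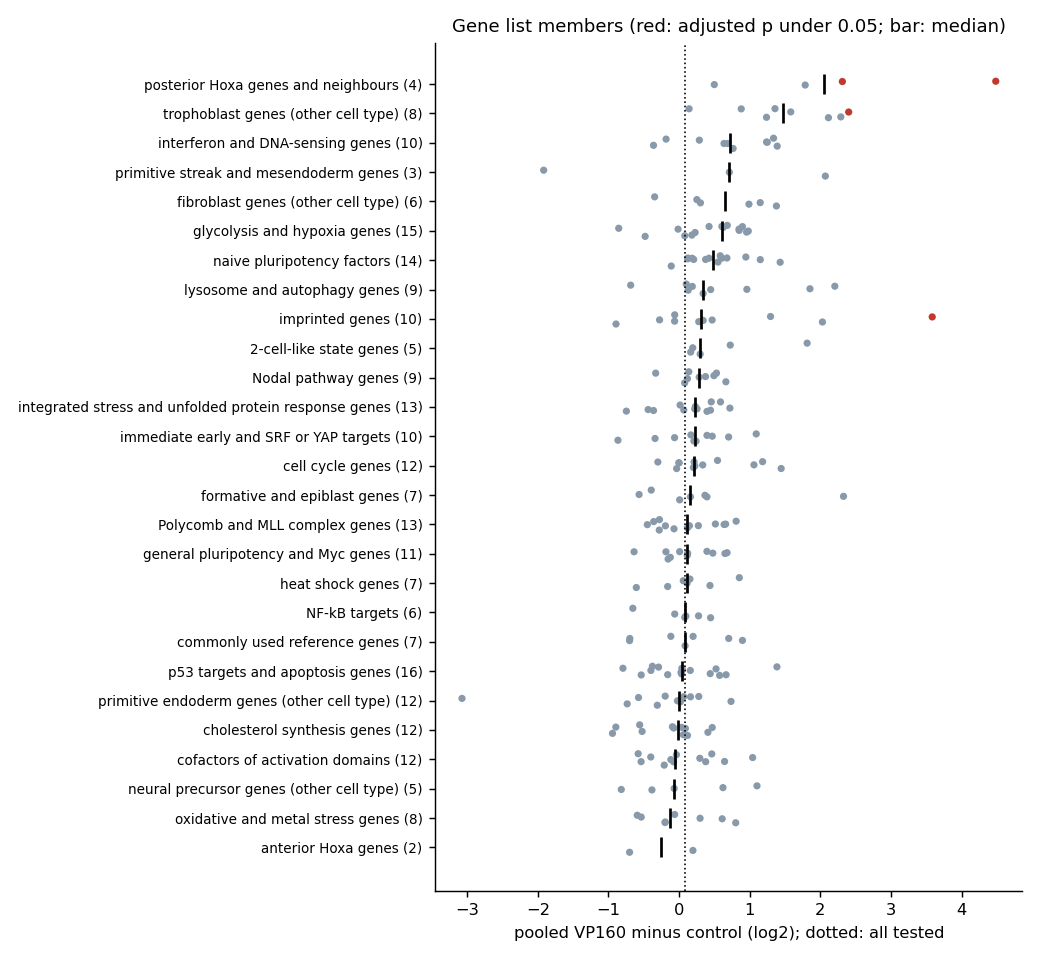
Pooled VP160 minus control difference (x axis, log2) of each tested member of 27 gene lists, with the number tested in parentheses, a bar at the median of the list and a dotted line at the median of all tested probes (0.08). Red points are the 4 members with an adjusted p under 0.05. The posterior *Hoxa* and trophoblast lists have the highest medians (2.05 and 1.47).

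Promoters of the described genes were searched for the seeds of all 10 gRNAs, that is, the 12 bases next to the PAM followed by NGG, on both strands of RefSeq windows around the annotated start. Overlapping gRNAs of a pool share parts of these motifs. No window of the 18 risen genes and none of the 23 fallen genes with a window held one, where 1 of all 32851 windows (0.00304%) held a *Hottip* gRNA motif, which was that of *Hottip*, and 20 (0.0609%) a *Hoxa13* gRNA motif. With 10 bases and NGG there was again no match, against 0.0152% and 0.387% of all windows. With 8 bases and NGG the windows of *Cdc42ep2* (*Hottip* gRNA, 0.222% of all windows) and *Aqp5* (*Hoxa13* gRNA, 2.18%) held a match. A match describes letters only, and the absence of one says nothing of binding outside these windows.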

How the data were processed

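Total RNA of 10 mESC cultures was measured on 1-colour Agilent arrays of 62976 spots. The deposited scanner files, made per the file headers with Feature Extraction 11.5.1.1 on an mm9 design, hold linear signal intensity per spot. The authors also deposited a series table of log2 values, processed with limma per the labels, in a manner not given in the sources used here, and it was used as an alternative. *Hottip* gRNA replicates 3 and 4 had not been detrended for the array surface by the scanner software.

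Processed signals were put on a log2 scale and centred on each array at the 75th percentile of 59305 non-control spots, which had linear values of 586 to 2572. Spots with an outlier mark were set aside and spots of a probe averaged. A model with 3 group means was fitted to 55681 probes (limma 3.58.1, R 4.3.3) with the contrast of the mean of both VP160 pools minus control, and p was adjusted by Benjamini-Hochberg. Adjustment covered probes detected well above background on 3 or more arrays, 22839 in all, of which 22823 could be tested. Symbols were assigned by matching the systematic name of each probe to RefSeq (27667 probes had one). Named were the 12 genes with the largest described falls and the 12 with the largest described rises among those above background on all 7 VP160 arrays. The called members of the lists, 10 fixed genes, and others chosen later were also named. The rises of *Aspa*, *Acta1*, *Cd82*, *Myzap* and *Gsta3* were among those chosen later. Some items the rule selects are not reported here. For a gene with several probes each probe was tested. A bound ("at least") sets the dim group at its detection limit. Levels are not compared between probes. Sequences and gene order are from RefSeq (GRCm38.p6). Members and lists were chosen with earlier results of these data known. The number of arrays limits the precision.

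Alternatives covered normalisation, background, filters, slide, replicate block, array weights, local surface correction and leaving out each array. Deviations of samples with the same replicate number correlated from -0.23 to 0.14 and those with different numbers from -0.32 to 0.28. Samples of the same number were thus no more alike. With 9 such pairs this cannot decide whether the numbers pair samples.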

Additional observations from a re-analysis of the deposited data

Results flagged for a closer look

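*Hoxa10* had an extreme sample in the *Hottip* gRNA group, where replicate 3 was highest and its gap to the next array took 0.916 of the range of the group, above the Dixon limit of 0.829 for 4 samples. Of 21 groups examined in this way 1 passed the limit, and chance alone passes about 1 in 20.

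Differences between the gRNA pools in the contrast of *Hottip* gRNA minus *Hoxa13*-labelled arrays, tested by limma in a fit where the control cancels, were found for 6 of the genes described as higher, each of which was called against control in 1 pool alone. They were 2.92 for *Aspa*, 2.52 for *Ly6c1*, 3.31 for *Cdx2*, 2.36 for *Ly6a*, -2.46 for *Acta1* and 1.85 for *St6galnac2* on the log2 scale. Those of *Aspa*, *Cdx2* and *Acta1* were taken against a pool mostly or wholly not above background, so their sizes are not exact. With an array left out in turn, the adjusted p of the *Cdx2* difference stayed under 0.05 in 9 of 10 fits, that of *Ly6a* in 4, *Acta1* in 3, *Aspa* in 2, and *Ly6c1* and *St6galnac2* in 1 each.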

How the results depend on the processing

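The counts of probes called and described (in all, higher, lower) were 92 and 78 (21, 57). They became 117 and 94 (37, 57) with quantile normalisation, 63 and 55 (12, 43) with median centring, 88 and 59 (16, 43) with normexp, 62 and 56 (12, 44) with the authors' log2 values, 50 and 43 (10, 33) without the filter on dim probes, 98 and 65 (21, 44) with the slide as a block, 20 and 16 (1, 15) on the slide that held all groups, 62 and 62 (5, 57) with 1 mean for the 7 VP160 arrays, 1881 and 508 (241, 267) with array weights, 218 and 200 (158, 42) with the local median subtracted, and 29 and 26 (12, 14) without *Hottip* replicates 3 and 4. Restricted to probes well above background on all 10 arrays, limma called 0 of 14112. Alternatives chosen after seeing the data gave 45 and 34 (15, 19) with outlier spots kept, 116 and 95 (35, 60) with a variance prior from tested probes, and 46 and 33 (16, 17) without rows after 320. Leaving out 1 array gave 14 to 190 called and 12 to 180 described, 2 to 39 higher and 10 to 141 lower. With the replicate number as a block 2 probes were called and described (0 higher, 2 lower), and *Hoxa13* was 4.57 (adjusted p = 0.0758). Of the 21 rises, 2 were still called and separate in the authors' values, 4 with normexp, 7 with the slide as a block and 18 with quantile normalisation, and of the 57 falls 30, 33, 34 and 49. All 21 rises and all 17 falls of rows 1 to 320 kept their direction wherever measured. *Hoxa13* was 4.48 but untested when detection on all arrays was required, 4.46 (adjusted p = 0.0594) on the shared slide and 5.05 (adjusted p = 0.767) with 1 mean. List members called numbered 9 with quantile normalisation and 1 to 6 with an array left out. *Psip1* turned to -0.87 (quantile), -0.19 (slide as a block, and shared slide alone), -0.092 (replicate block) and -0.033 to 0.27 with an array left out (negative without *Hoxa13*-labelled replicate 2), and -0.24 (75th percentile of detected probes), *Wdr5* to 0.017 and *Rfx5*, a described fall of rows after 320, to 0.13 (local median), *Gapdh* to -0.041 (the authors' values) and -0.035 (normexp with quantile), and *Actb* to -0.13 (quantile, and detected probes), -0.023 (median) and -0.21 to 0.30 with an array left out (negative without *Hottip* replicate 2). The percentile of detected probes moved the median of all tested probes from 0.08 to -0.14. The cause of these changes was not tested.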
